A study of Mus musculus with 25 samples.

Results

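Tenascins, thrombospondins and the other matricellular proteins were followed in laser capture microdissected (LCM) compartments of the E14.5 (embryonic stage) mouse palate, shortly after the shelves meet at the midline. The genes were chosen by symbol, namely Tnn, Tnc, Thbs1, Thbs2, Thbs3, Thbs4, Postn, Sparc, Spon1 and Npnt, which are 10 of the 37406 gene rows in the table. The choice was made with earlier results of these data known. All 25 RNA-Seq libraries were labelled as wild type CD1 with no treatment. Some alignment names in the table header that gave the sequencing runs carry ERK2_WT or Tgfbr2_WT, so the line of those libraries is given only as labelled. The anterior and the posterior palate were each divided into medial and lateral compartments and, in other sections, into oral and nasal compartments, giving triplicates of 7 compartments and 4 replicates of anterior nasal. The medial-lateral and oral-nasal divisions cut the same shelves in different directions, so their compartments overlap in tissue. The number of embryos behind a library was not given in the sources used here, and p-values measure the spread between these libraries.

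Matricellular proteins are secreted into the extracellular matrix, where they act on cell adhesion, signalling and matrix assembly more than as structural fibres. Many bind integrins and are made at sites where tissue is being shaped, bone is forming or wounds are healing. In the palate, the shelves are filled with mesenchyme that grows, elevates, fuses at the midline and then forms the palatal bone, and the composition of its matrix is known to matter for shelf growth and elevation.

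Tnn and Thbs2 were the 2 genes that passed the adjusted test in more than 1 comparison, so the 250 bases before their annotated starts are shown from RefSeq (GRCm38.p6, both genes on the minus strand, sequence 5′ to 3′ on the gene's strand). Capitals mark a match to any of 4 words searched on both strands, TATAAA (the TATA box), TGTGGT (the core bound by RUNX factors), TGANTCA (AP-1) and ATCAAAG (TCF/LEF).

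Tnn, chr1:160153576-160153825: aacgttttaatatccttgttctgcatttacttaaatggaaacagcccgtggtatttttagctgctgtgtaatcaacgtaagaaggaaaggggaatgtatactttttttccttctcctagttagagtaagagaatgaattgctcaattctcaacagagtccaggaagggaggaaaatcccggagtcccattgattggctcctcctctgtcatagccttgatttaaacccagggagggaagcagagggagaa

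Thbs2, chr17:14694263-14694512: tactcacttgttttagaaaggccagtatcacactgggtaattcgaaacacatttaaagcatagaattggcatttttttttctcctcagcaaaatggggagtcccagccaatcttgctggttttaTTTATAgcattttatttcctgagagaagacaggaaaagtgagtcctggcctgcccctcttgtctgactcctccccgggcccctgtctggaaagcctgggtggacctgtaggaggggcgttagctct

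The Tnn window held none of the 4 words, and the Thbs2 window held 1 TATAAA on the opposite strand. Over 32851 promoter windows of the same length, 12.4% held TATAAA, 14.0% TGTGGT, 6.75% TGANTCA and 3.21% ATCAAAG. The Tnn window was 42.0% G and C and the Thbs2 window 46.8%, against a median of 52.4% over all windows. These matches are descriptions of letters in a fixed window.

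The table holds RPKM values (reads scaled to transcript length and to library size), and the depth implied by the values themselves lay between 1.64 and 6.56 M reads (median 3.27 M over the 25 libraries). This counts the reads behind the values, after the authors removed duplicates and reads aligned at several places, and the study's methods state a higher number sequenced per sample. At the implied depth the approximate number of reads behind a value in the median library ranged from 10 for Thbs4 and 162 for Spon1 to 5559 for Postn. Markers of palatal mesenchyme were above 0 in every compartment, 7 of 7 genes. The replicates of posterior medial (median SD of a gene 0.588 on the log2 scale) and anterior oral (0.438) were the most spread, against 0.130 for anterior lateral. Libraries came from 8 sequencing runs, and no run held both anterior lateral and anterior medial, nor both posterior lateral and posterior medial, so in those pairs an effect of the run cannot be told apart from one of the compartment. Because these were bulk samples, fewer cells of a type and less RNA per cell cannot be told apart either.

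The 10 genes spanned a wide range of levels. Postn, a fasciclin-domain protein of periosteum and other collagen-rich tissue, was the highest, with a median of 338 RPKM over the 25 libraries (range 187 to 526), and ranked 35 among all gene rows by mean. Sparc, the collagen-binding protein also called osteonectin, had a median of 286 RPKM (189 to 350) and ranked 55. Both were high everywhere, and their compartment means on the log2 scale spanned only 0.75 and 0.64. Tnc came next, with a median of 79.0 RPKM (23.3 to 149). Thbs4 was the lowest. Its values ran from 0 in 1 posterior medial library to 2.81 RPKM, below the minimum of 5 RPKM in at least 3 libraries, so it entered no test. The compartment means of Tnn spanned 4.00 on the log2 scale, those of Npnt 3.30, Thbs4 2.89, Spon1 2.59, Thbs2 2.32, Thbs1 2.11, Tnc 1.68 and Thbs3 1.09. Low single values weigh heavily on this scale. The lowest compartment of both Thbs4 and Npnt was posterior medial, which held the 0 of Thbs4 and a library at 0.446 RPKM for Npnt. The 4 genes Tnn, Thbs1, Thbs2 and Npnt had their highest mean in the posterior nasal compartment.

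**Figure D1:**
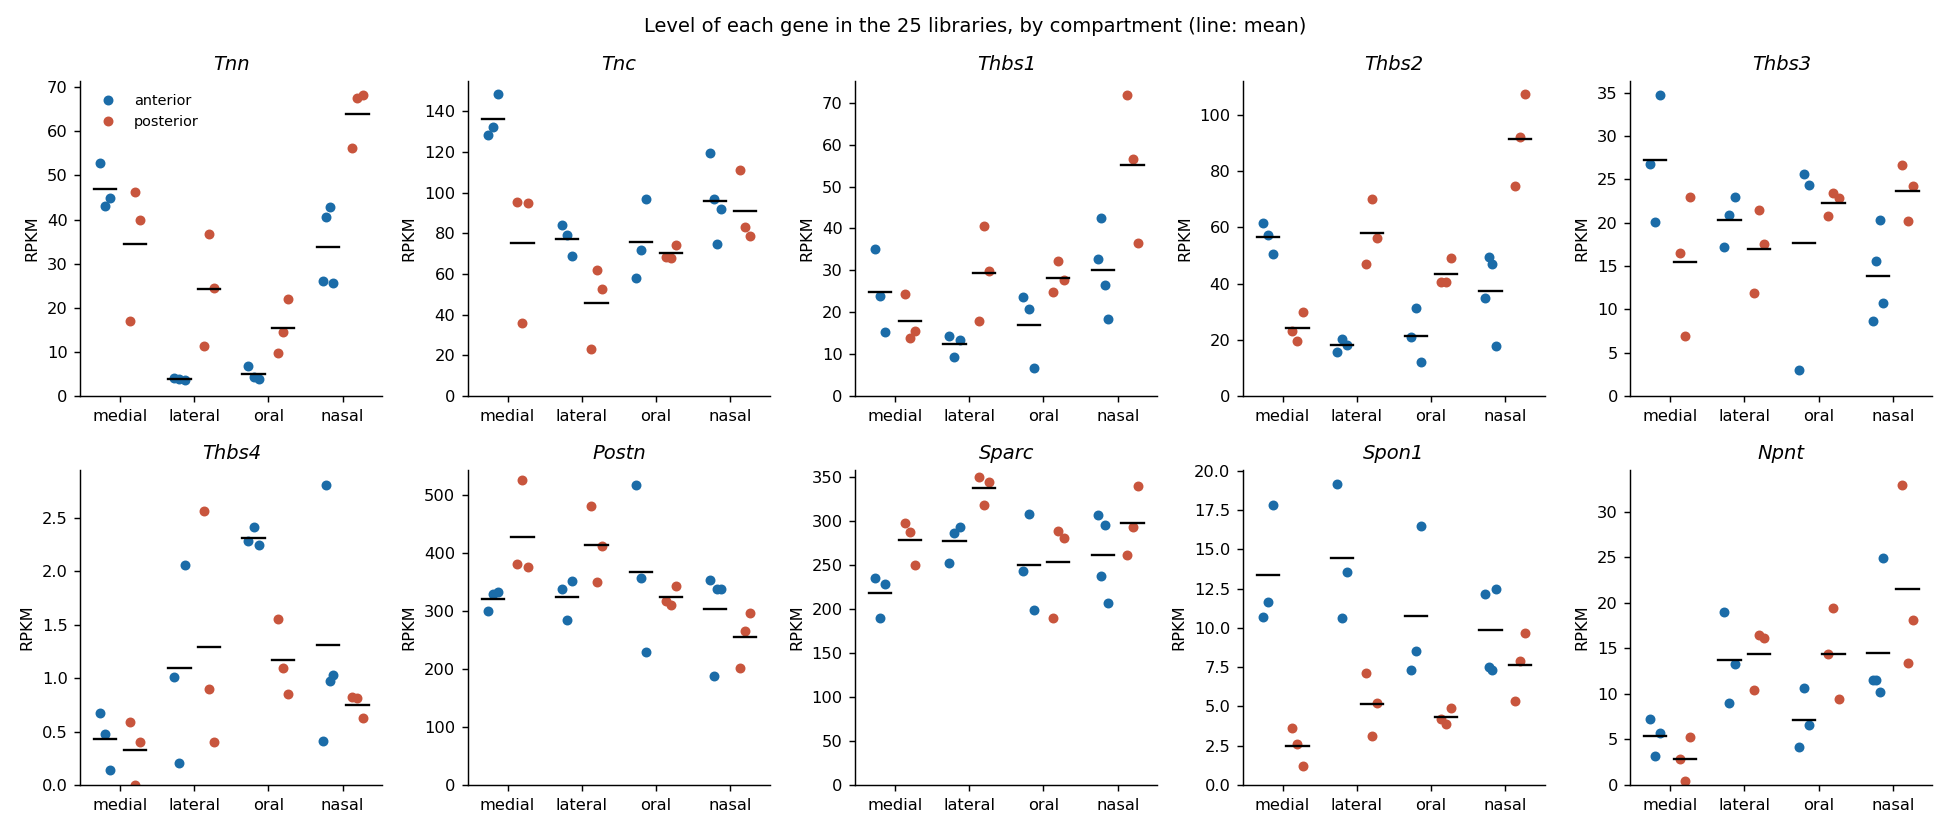
Level of each of the 10 genes (RPKM, linear axis from 0) by compartment, anterior in blue and posterior in red, with 1 point per library and a line at the mean. Tnn lies between 3.66 and 4.18 RPKM in anterior lateral and between 56.3 and 68.1 RPKM in posterior nasal, while Postn and Sparc stay above 180 RPKM throughout.

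Tnn encodes tenascin-N (also called tenascin-W), an extracellular glycoprotein associated with periosteum and forming bone (gene ID 329278, chromosome 1, 162015163 to 162083706, mm9). It had the widest span of the 10 genes. In anterior medial its values were 52.8, 43.0 and 44.8 RPKM, and in anterior lateral 4.18, 3.86 and 3.66 RPKM. Posterior medial gave 17.0, 46.3 and 39.8 RPKM and posterior lateral 11.5, 36.6 and 24.4 RPKM. Anterior medial and anterior lateral were far apart, while the posterior pair overlapped. Along the other axis, anterior oral was at 6.78, 4.44 and 3.88 RPKM and anterior nasal at 26.0, 40.7, 42.9 and 25.7 RPKM. Posterior oral was at 9.70, 14.6 and 22.0 RPKM and posterior nasal at 56.3, 67.5 and 68.1 RPKM. Oral and nasal libraries did not overlap in either region, with nasal the higher. In the order of the 8 compartment means, from posterior nasal (64.0 ± 6.67 RPKM, SD, n = 3) through anterior medial, posterior medial, anterior nasal, posterior lateral, posterior oral and anterior oral to anterior lateral (3.90 ± 0.26), only posterior nasal over anterior medial and posterior oral over anterior oral were neighbours without overlap.

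The comparison of lateral with medial compartments asked which genes mark the outer against the midline side of each shelf. In the anterior palate, Tnn was 11.7-fold lower in lateral (log2 difference -3.55 ± 0.13, SE, adjusted p = 2.8e-05, limma). Thbs2 was 3.12-fold lower (-1.64 ± 0.14, adjusted p = 0.0022) and Tnc 1.76-fold lower (-0.82 ± 0.13, adjusted p = 0.019). These were 3 of the 9 genes tested, all lower in lateral, while 2.51% of all 10427 genes tested passed in either direction and 1.08% were lower. The lateral and medial libraries did not overlap for 6 of the 9 genes, against 21.3% of all genes tested. Thbs1 was at 14.4, 9.33 and 13.5 RPKM in anterior lateral and at 35.1, 23.8 and 15.3 RPKM in anterior medial, a difference that missed the adjusted threshold (-0.93 ± 0.31, adjusted p = 0.19). The median log2 difference was -0.39 over the 9 genes and -0.03 over all genes tested.

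Npnt went the other way. It encodes nephronectin, a basement membrane ligand of integrin alpha8 beta1, and its values were 19.0, 8.96 and 13.3 RPKM in anterior lateral and 7.22, 3.22 and 5.66 RPKM in anterior medial. The groups did not overlap, and the difference of 1.35 ± 0.35 passed the thresholds the study used (P under 0.05 before adjustment, with more than a 2-fold change) but not the adjusted one (adjusted p = 0.11). Tnn, Thbs2 and Npnt were the 3 of 9 genes past those thresholds, against 2.37% of all genes. Posterior medial was lower still, at 2.79, 0.446 and 5.30 RPKM against 10.4, 16.5 and 16.2 RPKM in posterior lateral, a difference of 2.79 ± 0.84 with an adjusted p of 0.96. The lowest value, 0.446, came from the posterior medial library least like its replicates, replicate 2. Without that library the difference was 1.84 (adjusted p = 0.59).

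The other cell types in the anterior sections did not stay level. The summed level of 6 smooth muscle and pericyte markers was 122 to 131 RPKM in anterior lateral and 48.4 to 105 RPKM in anterior medial, and that of 15 cartilage genes 83.4 to 102 RPKM against 172 to 287 RPKM. Neuron markers, all 5 above 0, summed to 7.11 to 15.4 RPKM in lateral and 35.9 to 56.7 RPKM in medial. Only 1 of these 5 reached the expression minimum here (log2 difference -3.43), so the sum does not stand for 5 markers alike. Endothelium markers summed to 142 to 162 RPKM in lateral and 102 to 123 RPKM in medial, and Schwann cell markers to 14.7 to 20.4 RPKM against 6.37 to 11.1 RPKM. None of these sums overlapped between the groups. Cartilage genes Matn4 (-3.28 ± 0.23), Acan (-2.55 ± 0.30) and Sox9 (-2.36 ± 0.20) were lower in lateral with adjusted p of 0.0065 or less. The osteoblast transcription factor Runx2 was lower too (-1.54 ± 0.25, adjusted p = 0.025). Of the 4 osteoblast genes tested, 2 were higher in lateral, and their median was -0.03. The summed osteoblast level overlapped, at 190 to 316 RPKM in lateral and 198 to 235 RPKM in medial. The part of these cell types in the differences of Tnn, Thbs2 and Tnc was not tested. With all 25 libraries and the run in 1 fit, the differences of Tnn (-3.48), Thbs2 (-1.90) and Tnc (-0.77) had adjusted p of 0.38, 1.00 and 1.00, and 0 of 10427 genes passed.

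In the posterior palate no gene of the 8 tested passed the adjusted threshold between lateral and medial, nor did any of 10324 genes (0%), while 159 genes had an unadjusted p under 0.05 with limma. Thbs2 and Npnt were both higher in lateral by the study's thresholds, as were 0.62% of all genes tested, and 1.12% passed in either direction. Spon1 fell below the expression minimum and was not tested here. Lateral and medial did not overlap for 3 of the 8 genes, Thbs2, Npnt and Sparc, against 6.62% of all genes. The SE of Tnn was 0.58 here and 0.13 in the anterior pair. Smooth muscle and pericyte markers summed to 28.3 to 50.03 RPKM in posterior lateral and 68.5 to 125 RPKM in posterior medial, and epithelium markers to 20.2 to 36.9 RPKM against 58.8 to 123 RPKM, and their part was not tested.

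**Figure D2:**
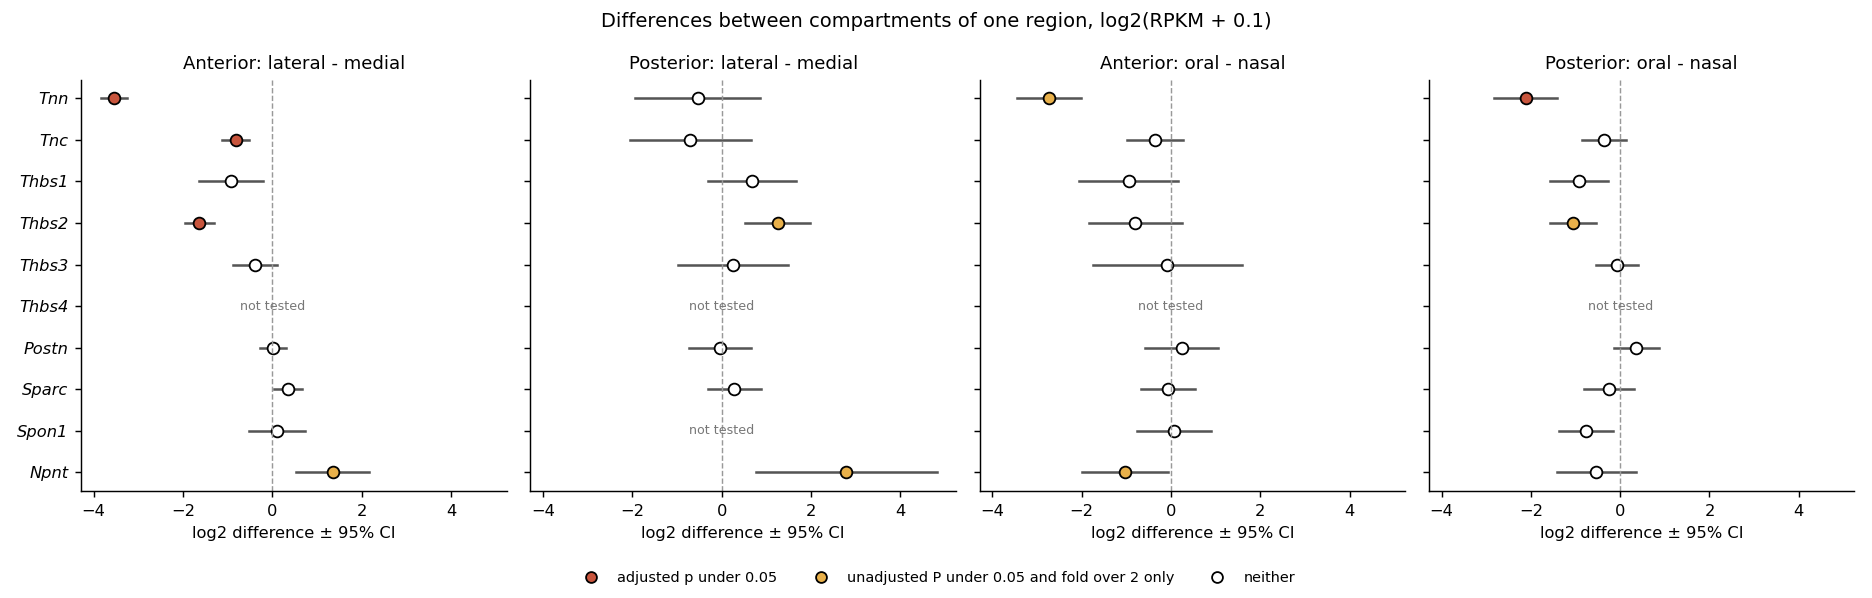
Log2 difference of RPKM + 0.1 with its 95% confidence interval from limma for lateral minus medial and oral minus nasal, in the anterior and posterior palate. Filled red points passed an adjusted p of 0.05, yellow points only the study's thresholds. Tnn lies far to the left in 3 of the 4 panels, and Thbs2 changes side between the anterior and posterior lateral-medial panels.

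Thbs2 encodes thrombospondin-2, a trimeric matrix protein known for restraining angiogenesis and for its part in collagen fibril assembly (gene ID 21826, chromosome 17, 14802507 to 14831269, mm9). Its medial-lateral difference had opposite signs in the 2 regions. In the anterior palate, medial was at 61.5, 57.2 and 50.6 RPKM and lateral at 15.8, 20.4 and 18.0 RPKM. In the posterior palate, medial was at 23.0, 19.7 and 29.8 RPKM and lateral at 47.1, 70.2 and 56.2 RPKM. Neither pair overlapped, and the anterior medial and posterior lateral libraries covered a similar range. The posterior lateral minus medial difference was 1.26 ± 0.30 (adjusted p = 0.96), and the difference between the 2 regions' contrasts was 2.90 ± 0.31 (95% confidence interval 2.21 to 3.59, adjusted p = 0.030, interaction term in limma). Thbs2 was the 1 gene that passed among 11089 tested for this interaction, 0.00902%. In the same contrast all 10 cartilage genes tested were positive (median 1.49, 4 past the study's thresholds), and the 6 smooth muscle and pericyte markers had a median of -1.86, with 3 negative past those thresholds. Their part in the value of Thbs2 was not tested.

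Tnn gave a contrast of similar size but larger error, 3.02 ± 0.63 (adjusted p = 0.33), and Thbs1, the closest relative of Thbs2, gave 1.62 ± 0.55 (adjusted p = 0.96). Thbs2, Tnn and Thbs1 were 3 of the 9 genes past the study's thresholds for the interaction, all positive, against 1.2% of all genes positive and 2.42% in either direction. For Thbs1, posterior lateral was at 18.0, 40.6 and 29.8 RPKM and posterior medial at 24.3, 13.8 and 15.6 RPKM, which overlapped.

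The interaction of Thbs2 could be set within runs. Within the 1 run that held both lateral compartments, posterior minus anterior was 1.79, and within the 1 run that held both medial compartments it was -1.21, a difference of 3.00. Lateral here was 2 posterior libraries against 1 anterior, and medial 2 posterior against 3 anterior. On those 8 libraries alone the adjusted p was 0.84 and no gene of the 10 passed. The adjusted p was 0.22 with the replicate number as a block. Leaving out 1 library at a time kept the contrast at 2.75 to 3.06, and the adjusted p was over 0.05 for 9 of the 12 libraries left out, with a highest value of 0.19.

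**Figure D3:**
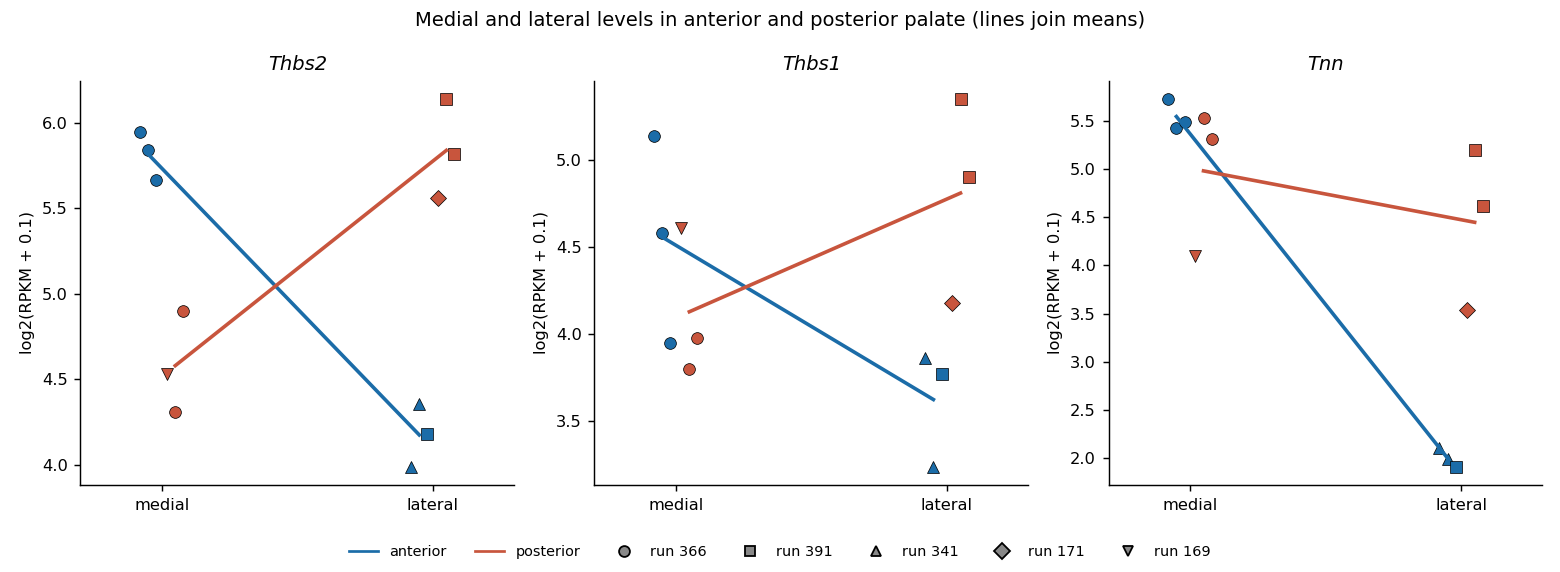
Level on the log2(RPKM + 0.1) scale in the medial and lateral compartments, for Thbs2, Thbs1 and Tnn, with 1 point per library, the marker shape giving its sequencing run, and lines joining the means of anterior (blue) and posterior (red). The Thbs2 lines cross without overlap of the points at either end, those of Thbs1 cross with overlap at the medial end only, and for Tnn the anterior line falls by 3.55.

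Oral and nasal compartments were compared to find genes that mark the mouth-facing against the nose-facing side. In the posterior palate Tnn was 4.34-fold lower in oral (-2.12 ± 0.31, adjusted p = 0.020, limma). It was the 1 gene of the 9 tested to pass, against 1.25% of all 10586 genes, 0.661% of them lower in oral. Thbs2 was lower in oral by the study's thresholds, with 40.4, 40.6 and 49.1 RPKM in oral and 74.6, 92.0 and 107 RPKM in nasal (-1.06 ± 0.22, adjusted p = 0.079). These 2 genes compare with 3.5% of all genes past those thresholds, 1.52% of them lower in oral. Thbs1 was at 24.8, 32.2 and 27.7 RPKM in oral and 71.9, 56.7 and 36.6 RPKM in nasal, and missed both thresholds (-0.92 ± 0.28, adjusted p = 0.28). Oral and nasal libraries did not overlap for 6 of the 9 genes, against 11.8% of all genes tested, and 8 of the 9 had the lower mean in oral. Postn was the exception, with 317, 310 and 343 RPKM in oral and 201, 265 and 297 RPKM in nasal.

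Osteoblast genes were higher on the nasal side of the posterior sections. The summed level of 14 osteoblast genes was 664 to 968 RPKM in posterior nasal and 215 to 236 RPKM in posterior oral. Of the 14, Bglap2 was at 0 in all 25 libraries of the series and Bglap in 14 of them. All 10 osteoblast genes tested had the lower mean in oral and 9 passed the adjusted test in limma, against 0.661% of all genes lower in oral. Among the 9 were the bone matrix gene Ibsp (-6.22 ± 1.00, adjusted p = 0.028), the osteoblast channel Panx3 (-5.21 ± 0.67, adjusted p = 0.014) and the transcription factor Sp7 (-3.08 ± 0.30, adjusted p = 0.0046). This list was chosen with earlier results of these data known. The study had already named Ibsp, Panx3, Sp7, Dlx3, Smpd3, Dlx5 and Runx2 as higher in posterior nasal. Cartilage genes summed to 297 to 370 RPKM in nasal and 195 to 256 RPKM in oral, with Acan (-3.23) and Sox6 (-2.71) past the adjusted test. Endothelium markers were higher in oral, at 126 to 191 RPKM against 55.2 to 85.9 RPKM, as were Schwann cell markers, at 16.2 to 31.5 RPKM against 7.18 to 11.8 RPKM. The part of these cell types in the difference of Tnn was not tested. Within the 2 runs that held both compartments, with 1 or 2 libraries a compartment, Tnn was 5.75-fold and 3.75-fold lower in oral. Its adjusted p rose above 0.05 when any 1 of the posterior nasal libraries or posterior oral replicate 2 was left out, to at most 0.088, and was 0.13 without the expression minimum.

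In the anterior palate Tnn was 6.60-fold lower in oral (-2.72 ± 0.31) with an adjusted p of 0.11. No gene of the 9 and none of 10684 genes (0%) passed the adjusted threshold with limma, while 318 genes, 2 of the 9 among them, had an unadjusted p under 0.05. Tnn and Npnt passed the study's thresholds, both lower in oral, against 1.44% of all genes and 0.786% lower. Npnt was at 4.18, 10.7 and 6.54 RPKM in anterior oral and at 11.5, 11.5, 10.2 and 24.9 RPKM in anterior nasal, which overlapped. Without anterior nasal replicate 4 the difference of Npnt was 1.66-fold and without anterior oral replicate 1 it was 1.62-fold, under the 2-fold threshold. Within runs, with 1 or 2 libraries a compartment, Npnt was 3.76-fold and 2.72-fold lower in oral in 2 of the 3 and 1.04-fold higher in oral in the other. Tnn was the 1 gene of the 9 without overlap, against 3.67% of all genes. Endothelium markers, 6 of 6 above 0, summed to 121 to 191 RPKM in anterior oral and 69.9 to 118 RPKM in anterior nasal, and Schwann cell markers to 22.5 to 32.1 RPKM against 7.69 to 17.3 RPKM. Osteoblast genes were at 127 to 188 RPKM in oral and 211 to 290 RPKM in nasal, and cartilage genes at 122 to 133 RPKM and 169 to 267 RPKM. None of these sums overlapped, and their part in the values of Tnn and Npnt was not tested. Within the 3 runs that held both compartments, with 1 or 2 libraries a compartment, Tnn was 6.48-fold, 4.75-fold and 9.46-fold lower in oral. With all 25 libraries in 1 fit, which shares the spread over compartments, its adjusted p was 0.0023. No gene of the 9 passed when the oral-nasal difference was compared between regions, nor any at an unadjusted p under 0.05, against 0.035% of 11442 genes at the adjusted threshold and 2.38% at the study's. For Tnn that difference was 0.60 with a 95% confidence interval of -0.39 to 1.60.

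The anterior-posterior axis was compared with all compartments pooled and within each compartment. Spon1 was the 1 gene of the 9 to pass in the pooled comparison, where 3.32% of 8608 genes passed, 1.66% lower in posterior. That fit held the region alone, so differences between compartments were part of its error. With the compartments and the run also in the fit, Tnn, Thbs1 and Thbs2 passed as well. Spon1 encodes F-spondin, a secreted thrombospondin-repeat protein first known from the floor plate of the neural tube (gene ID 233744, chromosome 7, 120909512 to 121186889, mm9). The 13 anterior libraries ran from 7.31 to 19.2 RPKM with a median of 11.6, and the 12 posterior libraries from 1.18 to 9.66 RPKM with a median of 4.55. Posterior was 2.59-fold lower (-1.37 ± 0.25, adjusted p = 0.00086). The ranges overlapped, as they did for all 9 genes tested in the pooled comparison, while 0.267% of all genes did not overlap. Spon1 was also the 1 gene past the study's thresholds, against 1.75% of all genes, 1.01% lower. Of 4 smooth muscle and pericyte markers tested in the pooled comparison, 2 passed the adjusted test, both lower in posterior (median of the 4 -1.38), and their part was not tested.

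By compartment, Spon1 was at 10.7, 11.6 and 17.8 RPKM in anterior medial and 3.65, 2.60 and 1.18 RPKM in posterior medial (-2.48 ± 0.46, adjusted p = 0.25). Macrophage markers, 7 of 7 above 0, summed to 41.3 to 82.9 RPKM in anterior medial and 90.7 to 109 RPKM in posterior medial. Platelet markers summed to 14.9 to 30.7 RPKM in anterior and 42.4 to 130 RPKM in posterior medial, and osteoblast genes to 198 to 235 RPKM and 143 to 163 RPKM in the same order, and their part was not tested. In lateral Spon1 was at 19.2, 10.6 and 13.6 RPKM anterior and 7.10, 3.11 and 5.22 RPKM posterior (-1.51 ± 0.34, adjusted p = 0.12). In oral Spon1 was at 7.31, 8.52 and 16.5 RPKM anterior and 4.18, 3.89 and 4.92 RPKM posterior (-1.21 ± 0.36, adjusted p = 0.72). These 3 compartments had no overlap, and nasal, at 12.2, 7.52, 7.34 and 12.5 RPKM anterior against 5.37, 7.86 and 9.66 RPKM posterior, overlapped (-0.36 ± 0.29, adjusted p = 0.54). Within the run shared by both regions, Spon1 was lower in posterior by 2.82 on the log2 scale in medial, 1.73 in lateral, 1.95 in oral and 1.20 in nasal. The oral and nasal values each compared 1 library with 1, lateral 2 posterior with 1 anterior, and medial 2 with 3. In nasal these were the highest anterior library and the lowest posterior one, at 12.5 and 5.37 RPKM. In oral the anterior library was the highest of its group, at 16.5 RPKM. With all 25 libraries in 1 fit the medial difference passed (adjusted p = 0.0011), and in the pooled comparison Spon1 passed with any 1 library left out.

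Within lateral, Thbs2 and Tnn rose from anterior to posterior. Thbs2 was 3.16-fold higher in posterior lateral (1.66 ± 0.19, adjusted p = 0.015) and Tnn 5.47-fold higher (2.45 ± 0.39, adjusted p = 0.041). They were 2 of the 9 genes, against 1.39% of 10452 genes in either direction and 0.679% higher. Thbs1 (1.19 ± 0.32) also passed the study's thresholds upward and Spon1 downward, 4 of 9 in all against 3.11% of all genes, and 6 of the 9 genes did not overlap against 18.9% of all. This comparison shares its anterior lateral libraries with the anterior lateral-medial comparison, so the 2 are not independent. Left out 1 at a time, each of the 3 anterior lateral libraries and posterior lateral replicate 3 ended both calls, with adjusted p of 0.06 to 0.20, and posterior lateral replicate 2 (adjusted p = 0.057) and the replicate block (adjusted p = 0.090) ended that of Tnn. Smooth muscle and pericyte markers summed to 28.3 to 50.03 RPKM in posterior lateral and 122 to 131 RPKM in anterior lateral, cartilage genes to 170 to 260 RPKM against 83.4 to 102 RPKM, and epithelium markers to 20.2 to 36.9 RPKM against 39.4 to 85.9 RPKM. Their part was not tested.

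In the other compartments none of the 9 genes passed the adjusted threshold between posterior and anterior with limma, where 0.106% of all genes passed in medial, 0.179% in oral and 2.21% in nasal. At an unadjusted p under 0.05 there were 2, 4 and 4 of the 9. In medial, Thbs2 was 2.35-fold lower in posterior (-1.24 ± 0.26, adjusted p = 0.34), and it and Spon1 were the 2 genes past the study's thresholds, against 2.88% of all genes and 1.4% lower. In oral, Tnn (1.56 ± 0.39), Thbs2 (1.11 ± 0.38) and Npnt (1.05 ± 0.43) were higher in posterior and Spon1 lower by those thresholds, 4 of 9 against 2.27%. In nasal, Thbs2 alone passed them (1.38 ± 0.36, adjusted p = 0.092), against 6.05% of all genes and 3.46% higher, and Tnn was 1.94-fold higher (0.95 ± 0.25, adjusted p = 0.093). The osteoblast genes summed to 664 to 968 RPKM in posterior nasal and 211 to 290 RPKM in anterior nasal, and to 215 to 236 RPKM in posterior oral and 127 to 188 RPKM in anterior oral. Cartilage genes summed to 297 to 370 RPKM against 169 to 267 RPKM in nasal, and to 195 to 256 RPKM against 122 to 133 RPKM in oral. Smooth muscle and pericyte markers summed to 55.2 to 58.0 RPKM in posterior oral and 73.2 to 148 RPKM in anterior oral. In the same order, macrophage markers summed to 79.4 to 104 RPKM and 43.9 to 68.3 RPKM. Red cell markers summed to 631 to 891 RPKM and 341 to 458 RPKM. The part of these lists in these values was not tested. Groups did not overlap for 5 of 9 genes in medial, 4 in oral and 2 in nasal, against 11.9%, 8.26% and 20.3% of all genes. Thbs2 was thus higher in posterior in lateral, oral and nasal by 1.11 to 1.66 and lower in medial by 1.24, of which the lateral value passed the adjusted test. Within the run shared by the 2 regions, the values of Thbs2 were 1.79 in lateral, 1.74 in oral, 2.06 in nasal and -1.21 in medial. The oral and nasal values each compared 1 library with 1, lateral 2 posterior with 1 anterior, and medial 2 with 3. In oral and nasal, the anterior library of that run was the lowest of its group, at 12.1 and 17.8 RPKM.

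**Figure D4:**
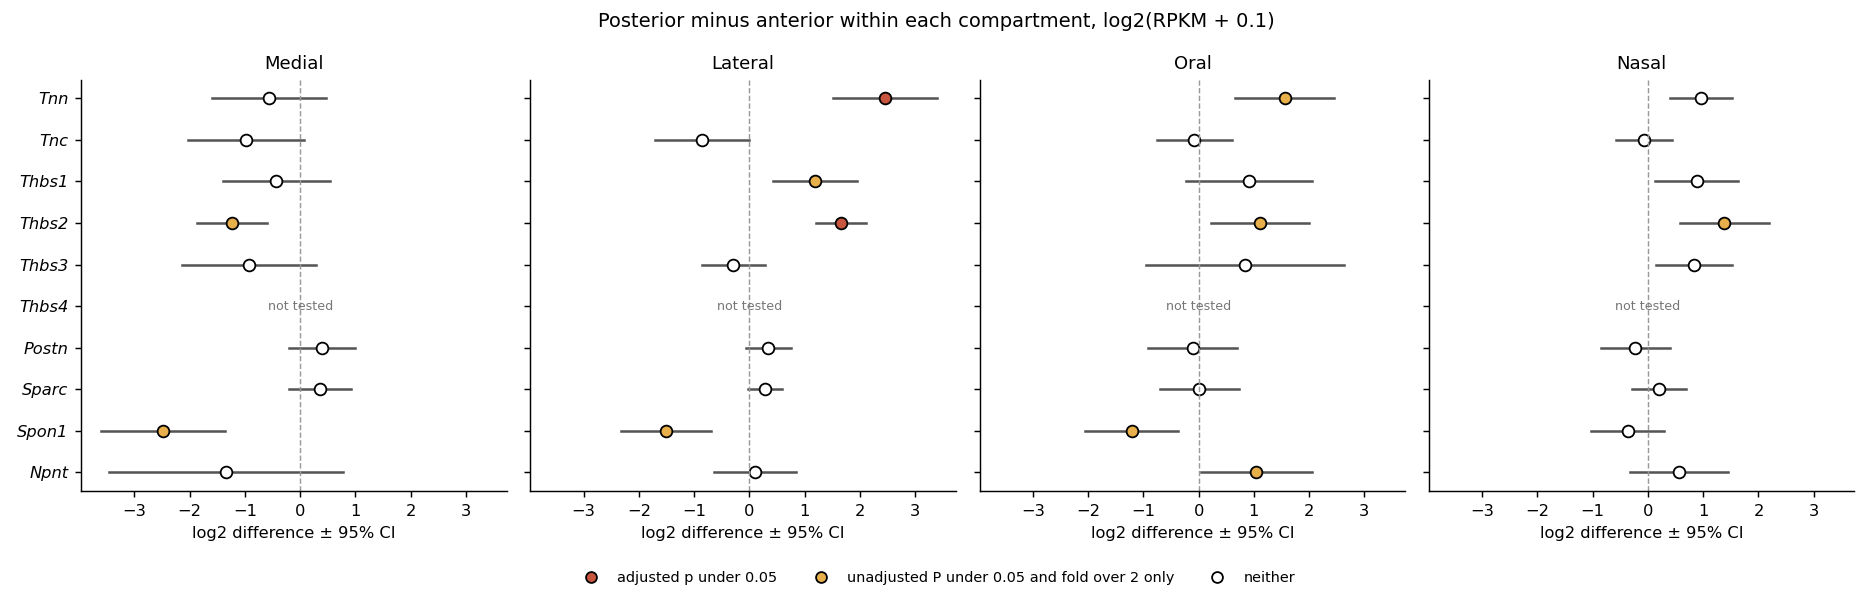
Posterior minus anterior log2 difference of RPKM + 0.1 with its 95% confidence interval from limma, within the medial, lateral, oral and nasal compartments, with red for an adjusted p under 0.05 and yellow for the study's thresholds only. Spon1 lies left of 0 in all 4 panels, and Thbs2 lies left in medial (-1.24) and right in lateral (1.66), oral (1.11) and nasal (1.38).

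Tnc encodes tenascin-C, a large hexameric glycoprotein of remodelling connective tissue. It was highest in anterior medial, at 128, 132 and 149 RPKM, above every library of anterior nasal, the next compartment by mean. It was lowest in posterior lateral, at 23.3, 61.8 and 52.7 RPKM. Its levels elsewhere overlapped over most of the order. Between posterior and anterior, Tnc was lower by 0.98 in medial (SE 0.43, adjusted p = 0.83) and by 0.86 in lateral (SE 0.36, adjusted p = 0.43), with no overlap in either, and its differences in oral (-0.08) and nasal (-0.07) were smaller than their SE of 0.29 and 0.23. Its call between anterior lateral and medial was lost without the expression minimum (adjusted p = 0.086), with the replicate block (0.087) and without any 1 of 4 libraries, anterior lateral replicates 2 and 3 and anterior medial replicates 2 and 3 (0.057 to 0.083).

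Thbs1 encodes thrombospondin-1, which binds CD36 and CD47 and can activate latent TGF-beta. It passed no adjusted test. Its compartment means followed those of Thbs2 (Pearson's r = 0.92 over 8 compartment means on the log2 scale), and those of Tnn followed both (r = 0.78 with each). The points share libraries, runs and depth, and no test was made of these correlations. Thbs1 had no neighbours without overlap in its order of compartments, which ran from posterior nasal (55.1 ± 17.7 RPKM) to anterior lateral (12.4 ± 2.72).

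Thbs3 and Thbs4 belong to the pentameric thrombospondins, a subgroup that includes cartilage oligomeric matrix protein. Thbs3 passed no test, adjusted or by the study's thresholds, and its compartment means lay between 13.8 and 27.2 RPKM with overlap between all neighbours. A second row for Thbs3, a stretch of chromosome 3 from 89030172 to 89030757 inside the first, was listed at 0 in every library, and the values given here are those of the longer row. Thbs4 was at 2.29, 2.42 and 2.25 RPKM in anterior oral, its highest compartment by mean, and at 0.588, 0 and 0.405 RPKM in posterior medial, its lowest. With about 10 reads behind its value in the median library, no difference of Thbs4 was tested.

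Postn and Sparc passed no adjusted test and no threshold of the study in any comparison. The largest difference of Postn was 0.40 (95% confidence interval -0.20 to 1.00), posterior minus anterior medial, and that of Sparc was 0.36 (-0.21 to 0.92) in the same comparison. In the pooled comparison the interval was -0.19 to 0.41 for Postn and -0.0046 to 0.42 for Sparc, which leaves out a 2-fold change of either. Sparc differed without overlap between anterior lateral, at 252, 286 and 293 RPKM, and anterior medial, at 235, 189 and 229 RPKM (0.35 ± 0.13, adjusted p = 0.26).

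Other secreted matrix proteins of the same kind were taken as a list of 16, of which 5 to 9 were tested in each comparison. Tgfbi, a fasciclin-domain relative of periostin, was lower in anterior lateral than medial (-1.12 ± 0.13, adjusted p = 0.0065) and higher in posterior in the pooled comparison (0.68 ± 0.17, adjusted p = 0.021). Smoc2, a calcium-binding relative of SPARC, was higher in posterior in lateral (2.18 ± 0.32, adjusted p = 0.029) and in nasal (1.64 ± 0.30, adjusted p = 0.027). Smoc2 had means of 11.3 and 11.5 RPKM in posterior lateral and nasal, against 2.51 and 3.82 RPKM in the anterior ones. These were the 4 calls in that list, and 0 of its members passed in the other 7 comparisons.

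Receptors were taken as a list of 20, of which 14 to 16 were tested. Itga8, the alpha subunit of the integrin that binds nephronectin and tenascin-W, was 2.72-fold lower in posterior in the pooled comparison (-1.45 ± 0.20, adjusted p = 3.3e-05) and 3.05-fold lower in nasal (-1.61 ± 0.19, adjusted p = 0.0046). Its means were 59.3 to 83.6 RPKM in the 4 anterior compartments and 17.9 to 31.8 RPKM in the 4 posterior ones. Its ligand gene Npnt differed by 0.04 (95% confidence interval -0.93 to 1.01) in the same pooled comparison, and Tnn by 1.00 (-0.07 to 2.06). Itgav, an alpha subunit that pairs in receptors for tenascin-C, periostin and thrombospondins, was lower in posterior by 0.50 (SE 0.12, adjusted p = 0.011), and Itga4 was lower in posterior nasal by 1.84 (SE 0.38, adjusted p = 0.047). Cacna2d1, the alpha2delta calcium channel subunit that binds thrombospondins, was higher in posterior lateral than anterior lateral (1.21 ± 0.19, adjusted p = 0.037), and Itga6, a laminin receptor subunit, was higher in posterior oral than nasal (1.21 ± 0.22, adjusted p = 0.040). None of the listed receptors passed in the lateral-medial comparisons or in the interactions.

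Matrix partners, the collagens, fibronectin, elastin and small proteoglycans that these proteins bind, were taken as a list of 24, of which 23 were tested in each comparison. In the pooled comparison 3 were higher and 3 lower in posterior, 6 of 23 against 3.32% of all genes. Col12a1 was 3.15-fold higher (1.65 ± 0.24, adjusted p = 6.4e-05) and Col14a1, the other fibril-associated collagen of the list, 8.35-fold lower (-3.06 ± 0.38, adjusted p = 7.4e-06). Elastin (Eln) was 2.07-fold lower, Fn1 1.26-fold lower, Col6a3 1.81-fold higher and Col1a1 1.38-fold higher. Within nasal, Col14a1 (-3.25), Eln (-1.43) and Col6a3 (1.42) passed again, with the nasal libraries shared between the 2 comparisons, and within lateral Col12a1 was 5.40-fold higher in posterior. Fbln2 was lower in anterior lateral than medial by 0.68 (SE 0.11, adjusted p = 0.025).

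The genes whose 8 compartment means were most like each of the widely spanning members were sought among the 11913 genes that reached 5 RPKM in 3 or more libraries. For Tnn they were Mnd1 (Pearson's r = 0.95), 4732418C07Rik (0.95) and Kcnma1 (0.95), of which Kcnma1, a calcium-activated potassium channel, spanned 2.85 on the log2 scale and the other two 0.74 or less. For Thbs1 they were Klf4 (0.97), Fzd8 (0.97) and Runx2 (0.96), and for Thbs2 Cygb (0.98), Snord85 (0.97) and Ddx1 (0.96). Runx2, the transcription factor that starts osteoblast differentiation, had its highest mean in posterior nasal (101 ± 6.77 RPKM) and its lowest in anterior lateral (14.6 ± 3.29), as Thbs1, Thbs2 and Tnn did. For Spon1 they were Nell2 (0.98), Neu3 (0.97) and Arhgef26 (0.97), for Npnt Pold4 (0.98), Gm13315 (0.97) and Ctnnb1 (0.97), and for Thbs4 Zbtb7c (0.94), Pctp (0.93) and Zcchc3 (0.93). The ranking of Thbs4 rests on values of at most 2.81 RPKM, with about 10 reads in the median library. With 8 points and this many genes, values of this size are a ranking and were not tested.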

How the data were processed

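Laser captured E14.5 palate compartments were profiled by RNA-Seq in 25 libraries, grouped by the sample labels. Per the labels, RNA was amplified with the NuGEN Ovation system and libraries made by Nextera tagmentation. The authors deposited RPKM values, made in GeneSpring from aligned reads. The submitters' processing notes name TopHat and mm9. The table's gene positions are taken as mm9. Depth was inferred from ratios of low RPKM values between libraries, where 597 of 600 ratios were the same by another route within 1e-05. It counts reads left after the authors removed duplicates and multiply aligned reads. Intervals from it would cover counting error only.

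Values were tested as log2(RPKM + 0.1) in limma 3.58.1 (R 4.3.3), over the libraries compared, with genes of at least 5 RPKM in at least 3 libraries (10 RPKM in at least 6 for the pooled comparison). The pooled comparison was fitted on the region alone, without the compartment. P-values were adjusted over every gene tested (Benjamini-Hochberg). With 3 libraries a group no exact test per gene could pass, so none was made. The test was tried on simulated data. The authors pooled regions with another test, which was not used here. Alternatives were other pseudocounts (1 and 0.01), median centring, quantile normalization, a replicate block, limma's trend option, no expression minimum or another one, all 25 libraries in 1 fit with and without the run, and leaving out each library. Further fits, without the least alike libraries and within shared runs, were chosen after seeing the data. The members and lists were chosen with earlier results of these data known. All 10 members are named. List genes are named where the adjusted p was under 0.05, at most 4 a direction, list and comparison, with some of the cartilage and osteoblast genes left out. The 3 most alike genes are named for members spanning over 2 on the log2 scale. Figures were made in Python 3.11.15 with matplotlib 3.10.9.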

Additional observations from a re-analysis of the deposited data

Results flagged for a closer look

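Thbs2 is listed for a difference between groups, since its medial-lateral contrast differed between posterior and anterior palate by 2.90 on the log2 scale (adjusted p = 0.030, limma interaction), with all 3 lateral libraries below the medial ones in anterior and above them in posterior. In the anterior nasal group of 4, 2 single libraries stood apart. Postn was at 187 RPKM in replicate 2 against 337 to 353 RPKM in the others, and Npnt at 24.9 RPKM in replicate 4 against 10.2 to 11.5 RPKM. Groups of 4 could be examined for 10 genes, and chance alone marks about 1 such group in 20.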

How the results depend on the processing

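No difference that passed the adjusted test changed sign under any alternative run. Numbers here are genes of the 10 with an adjusted p under 0.05. With all 25 libraries in 1 fit the number went from 0 to 1 for anterior oral against nasal, posterior against anterior medial, and posterior against anterior nasal, from 1 to 3 in the pooled comparison, and from 1 to 2 for the medial-lateral interaction. With the run added it was 0 in place of 3 for anterior lateral against medial, 1 in place of 2 for posterior against anterior lateral, 2 in place of 0 for medial, 1 in place of 0 for nasal and for anterior oral against nasal, and 4 in place of 1 in the pooled comparison, where Tnn, Thbs1 and Thbs2 joined Spon1. Without the expression minimum, which leaves more genes to adjust over, it was 0 for posterior oral against nasal, for posterior against anterior lateral and for the medial-lateral interaction. The interaction was also at 0 within shared runs, where 8 libraries remained. Leaving out 1 library gave 0 to 1 for posterior oral against nasal, 0 to 3 for posterior against anterior lateral and 0 to 1 for the medial-lateral interaction. The pooled number stayed at 1 without anterior oral replicate 1 and posterior medial replicate 2.

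Same-numbered replicates were not shown to be paired. Their deviations correlated at -0.52 to 0.45 over 24 pairs, 12 of them over 0.1. In 10 of the 24 pairs, in which libraries recur, a library correlated best with its own number. As a block, the replicate number took the medial-lateral interaction from 1 gene to 0. It left Tnc in anterior lateral against medial at an adjusted p of 0.087 and brought Npnt there to 0.016 and Spon1 in posterior against anterior lateral to 0.040.

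Over all genes, the number called in anterior lateral against medial was 262 as reported, 157 with the block, 31 with all 25 libraries in 1 fit and 0 with the run. Depth limits Thbs4 most.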
